A study of Mus musculus with 46 samples.

Results

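A set of 9 receptor tyrosine kinase and ligand genes was followed through 7 types of GABAergic neuron from mouse frontal cortex: Erbb4, Nrg1, Ntrk2, Ntrk3, Kit, Kitl, Met, Igf1 and Igf1r. They were chosen by name out of 23335 genes in the deposited table. Single red fluorescent neurons were picked after trituration of dissected slices, their polyA RNA was linearly amplified in 2 rounds, and 584 cells were sequenced in 46 libraries of 7 to 16 cells. The cells of 1 labelled animal were summed, and 4 PV basket animals gave 2 sums for a reason given below, so 16 replicates entered the tests. Levels are in CPM, the counts of a gene per 1000000 counts of all genes in the same sum.

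All animals were labelled wild type, and every sample's label carries the same note on tamoxifen given to Nkx2.1-CreER mice at E17.5. Martinotti cells were Sst-Flp; CR-Cre; Ai65 neurons of layer 2/3 from females aged 35 days (62 cells, 2 animals). Interneuron-selective cells were Vip-Flp; CR-Cre; Ai65 neurons of layer 2/3 from females aged 32 days (63 cells, 2 animals). CCK basket cells were Vip-Flp; CCK-Cre; Ai65 neurons of layers 2 and 3 from males aged 39 or 40 days (64 cells, 2 animals). PV basket cells were Pv-iresCre; Ai14 neurons of all layers from animals of both sexes aged 58 to 83 days (127 cells, 4 animals). Upper chandelier cells were Nkx2.1-CreER; Ai14 neurons from the border of layer 1 with layer 2/3 of infralimbic and prelimbic cortex in females aged 40 to 58 days (80 cells, 2 animals, 1 library labelled Ai15). The labels give animal 14 of this type 2 ages, 58 days in 1 library and 40 days in 2 libraries, so whether it is 1 animal is uncertain, and with it every value that rests on 2 upper chandelier replicates. Deep chandelier cells were Nkx2.1-CreER; Ai14 neurons of layers 5 and 6 from males aged 34 days (52 cells, 2 animals). Long-projecting cells were Sst-Flp; Nos1-Cre; Ai65 neurons from males aged 28 or 29 days (136 cells, 4 animals). Each type is what its drivers and the dissection labelled, and a single driver, as in the PV basket and chandelier groups, can mark more than 1 kind of neuron.

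Receptor tyrosine kinases span the cell membrane, bind a ligand outside the cell and then phosphorylate tyrosines on themselves and on adaptor proteins, which leads to the Ras and MAP kinase, PI3 kinase and phospholipase C gamma pathways. ErbB4 binds neuregulins and is known in cortex for its presence on interneurons, where it takes part in the formation of synapses onto and from them. TrkB (Ntrk2) and TrkC (Ntrk3) bind brain-derived neurotrophic factor and neurotrophin 3, Kit binds Kit ligand (Kitl), Met binds hepatocyte growth factor, and the IGF-1 receptor (Igf1r) binds IGF-1 (Igf1).

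Libraries held between 530927 and 4568242 counts. Gad1 and Slc32a1, which make and package GABA, were present in every library, at 376 CPM or more and at 339 CPM or more. The summed level of 8 oligodendrocyte markers was 3008 CPM in interneuron-selective library 3 and 4331 CPM in long-projecting library 2, against medians of 123 and 116 CPM in their types. Vip, a marker of the Vip types, reached 1918 CPM in deep chandelier library 4 and 374 CPM in upper chandelier library 1. Among PV basket libraries, 8 pairs, 4 between animals 7 and 8 and 4 between animals 9 and 10, differed by less than 2 times the squared difference that sampling alone gives (1.19 to 1.63), while every other pair of PV libraries was at 7.58 or more. The libraries of each of these 8 pairs carry the same index in adjacent lanes, and they agree nearly within sampling noise. All were kept and summed, as 1 replicate for animals 7 and 8 and 1 for animals 9 and 10. Counts of PV basket cells and libraries below include both members of each pair, so the same RNA may be counted more than once. Whether it was could not be told and was not tested. The 16 cell barcodes were all used again in several libraries (up to 38), none more than once in a library. The labels number 18 animals while the series' design text speaks of 4, so the p-values measure the spread between labelled animals. Each type was sequenced on 1 flow cell, and only 2 pairs of types shared one, so in the other comparisons type cannot be told apart from flow cell, and in most of them not from sex or age.

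All 9 genes passed the filter on low counts. In the joint test for any difference between types, 6 of them were called (edgeR quasi-likelihood test, Benjamini-Hochberg adjusted p under 0.05), against 25.0% of the 15533 genes tested: Erbb4, Nrg1, Ntrk2, Ntrk3, Kit and Igf1. The adjusted p was 0.0856 for Kitl, 0.0686 for Met and 0.134 for Igf1r in the same edgeR test. The 9 genes gave 43 calls over all the comparisons below, of which 26 held when any replicate was left out and under every other setting tried.

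**Figure D1:**
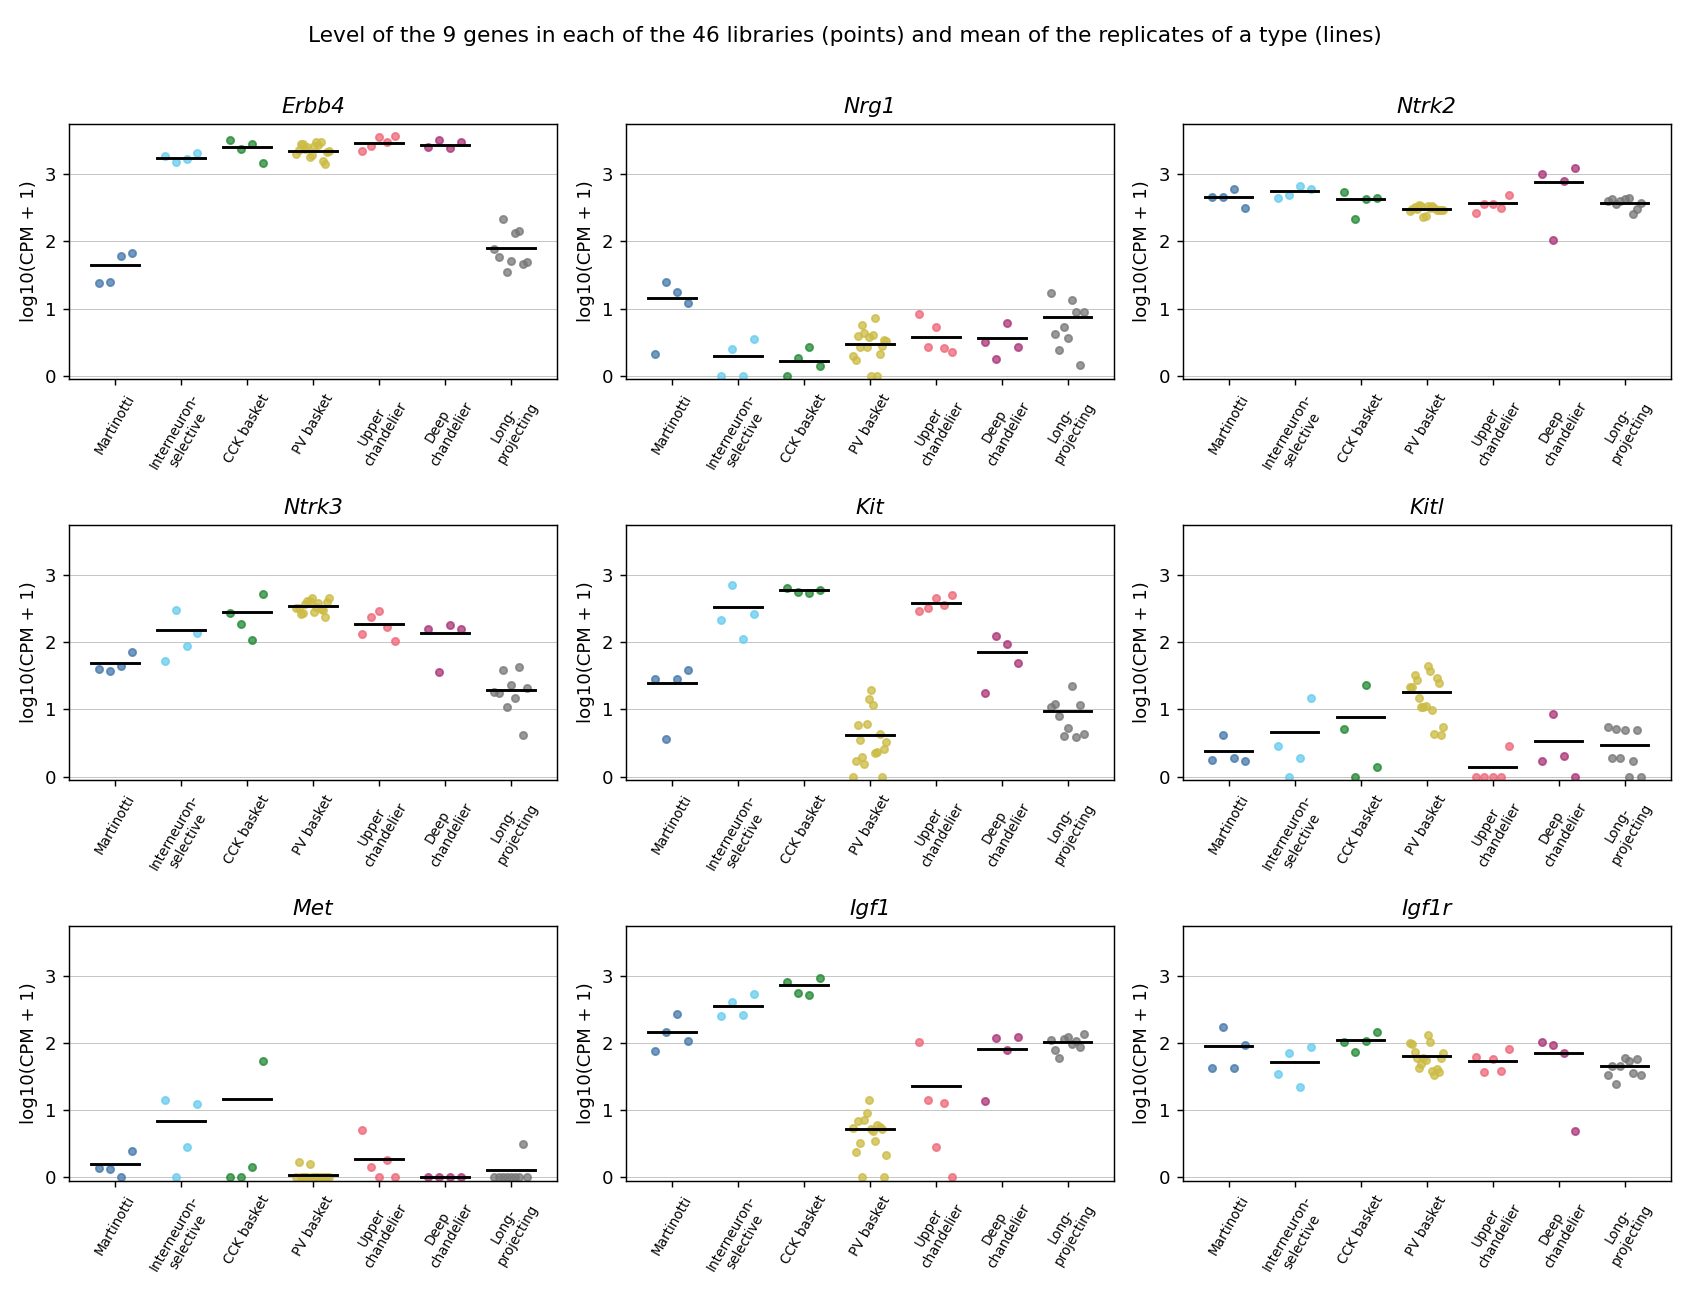
Level of each gene as log10(CPM + 1) in the 46 libraries (points, coloured by type), with the mean of the replicates of a type as a black line. Erbb4 is low in the Martinotti and long-projecting libraries alone, Kit and Igf1 are low in PV basket cells, and the means of Ntrk2 and Igf1r differ least between types, with 1 deep chandelier library far below the others in each.

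Erbb4, the neuregulin receptor, was low in both Sst types and high in the 5 others. It was at 23.4 and 62.5 CPM in the 2 Martinotti replicates and at 87.2, 42.3, 136 and 46.3 CPM in the 4 long-projecting replicates. In the interneuron-selective replicates it was at 1676 and 1874 CPM, in CCK basket cells at 2911 and 2120 CPM, and in PV basket cells at 2247 and 2262 CPM. The upper chandelier replicates were at 2496 and 3443 CPM and the deep ones at 2885 and 2662 CPM. The highest of the 13 Sst libraries (212 CPM) lay far below the lowest of the other 33 (1432 CPM), so no library of one group reached the other.

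Among the 5 high types the order ran from upper chandelier (2970 ± 670 CPM, SD, n = 2) through deep chandelier (2774 ± 158), CCK basket (2515 ± 560) and PV basket (2255 ± 10.7) to interneuron-selective (1775 ± 140). The replicates of the first 4 overlapped with their neighbours in this order, while those of PV basket and interneuron-selective cells did not overlap. The level in upper chandelier cells was 69.1 times that in Martinotti cells, whose replicates overlapped with the long-projecting ones. Erbb4 counts were found in 55 of 62 Martinotti cells and 130 of 136 long-projecting cells, and in every cell of the other types.

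Each type's Erbb4 level was tested against the mean log2 level of the other 6. The log2 fold change was -5.08 ± 0.50 (SE) in Martinotti cells (edgeR adjusted p = 4.72e-05) and -3.93 ± 0.33 in long-projecting cells (adjusted p = 4.15e-06, edgeR). Without Martinotti 2 the Martinotti change was -5.86. Because 2 types are so low, all 5 others were called higher, by 1.07 ± 0.31 in interneuron-selective cells (edgeR adjusted p = 0.0428) to 2.29 ± 0.28 in deep chandelier cells (edgeR adjusted p = 0.000227). The interneuron-selective call was lost when any of 8 replicates was left out (interneuron-selective 3 and 4, CCK basket 6, either PV basket sum, long-projecting 15, upper chandelier 13 and 14), with edgeR adjusted p from 0.0531 to 0.261. The PV basket call (1.66 ± 0.30) was lost without either of its own replicates (edgeR adjusted p 0.0959 and 0.137), and the upper chandelier call (2.05 ± 0.29) without animal 14 (0.0954).

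The upstream sequence of Erbb4 is shown because its RNA separated the Sst types from the other types without overlap, and that of Kit because it varied most widely among the genes counted in every type. RefSeq's promoter table (GRCm38.p6, not the build the submitters' notes name) held 7 of the 9 genes. Below are 250 bases before the Erbb4 start, chr1:69108060-69108309 on the minus strand, and the 169 bases from 250 to 82 before the Kit start, chr5:75574737-75574905 on the plus strand, each 5′ to 3′ in the gene's direction with CpG dinucleotides in capitals.
Erbb4: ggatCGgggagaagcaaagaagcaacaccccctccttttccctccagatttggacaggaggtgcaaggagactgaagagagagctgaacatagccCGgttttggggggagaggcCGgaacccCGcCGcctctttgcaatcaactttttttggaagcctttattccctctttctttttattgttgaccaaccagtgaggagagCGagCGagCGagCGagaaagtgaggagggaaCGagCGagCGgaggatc
Kit: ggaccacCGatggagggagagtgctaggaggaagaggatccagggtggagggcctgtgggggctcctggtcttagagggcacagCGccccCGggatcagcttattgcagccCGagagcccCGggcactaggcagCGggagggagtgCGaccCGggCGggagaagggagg

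The Erbb4 window holds 12 CpGs, and the whole 250-base Kit window 17, against a median of 6 over 32851 windows of the same length. Of all windows, 66.5% held fewer CpGs than that of Erbb4 and 76.5% fewer than that of Kit. The 169 bases of Kit printed above hold 9. A set of 4 short motifs, none of which contains another, was searched for on both strands. Some GENCODE transcripts begin before the start used here, by 71 bases for Kit, 157 for Met, 191 for Kitl and 1081 for Igf1. The Kit sequence above was cut short for that reason. The windows of these 4 genes may therefore lie partly, or for Igf1 wholly, downstream of another start. For Igf1r no GENCODE transcript matched the sequence after the start, so an earlier start could not be checked. GGGCGG, found in 32.7% of all windows, was in those of Kit, Kitl, Met and Igf1r and not in those of Erbb4, Igf1 or Ntrk2. The motif TATAAA (12.4% of windows) was in that of Kitl alone among the 7. The homeodomain core TAATTA (4.84%) and the cyclic AMP response element TGACGTCA (1.55%) were in none of them.

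Nrg1, a neuregulin that binds ErbB4, had its highest type means in the same 2 Sst types in which Erbb4 was lowest, at low absolute counts (327 counts in all 584 cells). The Martinotti replicates were at 13.2 and 13.7 CPM and the long-projecting replicates at 8.56, 3.47, 10.4 and 3.69 CPM. Upper chandelier cells were at 3.33 and 2.14 CPM, deep chandelier cells at 1.48 and 3.81 CPM, and PV basket cells at 2.11 and 1.89 CPM. The Vip types were lowest, at 0.831 and 1.06 CPM in interneuron-selective cells and 0.314 and 1.05 CPM in CCK basket cells.

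Martinotti replicates did not overlap with long-projecting ones for Nrg1, although a single Martinotti library was at 1.11 CPM and the other 3 at 11.0 to 23.8 CPM. Long-projecting replicates overlapped with deep chandelier ones, and the libraries overlapped in all 21 pairs of types. Nrg1 counts were found in 37 of 62 Martinotti cells, 54 of 136 long-projecting cells and 34 of 127 PV basket cells, with median depths of 107782, 122095 and 130761 counts per cell. In interneuron-selective cells 3 of 63 had a count, at a median depth of 42258 counts per cell; the part of this lower depth in the share was not tested. Nrg1 was higher in Martinotti cells than in the other 6 types by a log2 fold change of 2.69 ± 0.55 (edgeR adjusted p = 0.0121), a call lost without either Martinotti replicate (edgeR adjusted p 0.0628 and 0.0755). In long-projecting cells the change was 1.58 ± 0.47 (edgeR adjusted p = 0.0409). That call was lost without any of 13 replicates, all but CCK basket 6 and deep chandelier 11 and 12 (edgeR adjusted p 0.0554 to 0.164), and without interneuron-selective library 3 (0.0706). The joint test of Nrg1 was lost without either PV basket replicate (edgeR adjusted p 0.0516 and 0.0518). With limma voom the joint, Martinotti and long-projecting calls of Nrg1 were all lost (adjusted p 0.136, 0.0624 and 0.0535), and with no filter on low counts the long-projecting call was lost (edgeR adjusted p = 0.0664).

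Other ligands and receptors of the ErbB family were read from a list of 14 genes, of which 11 passed the filter and 4 were called in the joint edgeR test, against 25.0% of all genes. Nrg3, another ErbB4 ligand, had 1 low type: it was at 295 ± 37.4 CPM (SD over 4 replicates) among long-projecting cells and between 987 and 1885 CPM in the means of the others. Its log2 fold change in long-projecting cells was -2.04 ± 0.15 (edgeR adjusted p = 1.06e-06). It was called higher in Martinotti cells by 0.93 ± 0.16 (edgeR adjusted p = 0.00411) and in deep chandelier cells by 0.80 ± 0.16 (edgeR adjusted p = 0.00402). The 2 Sst types were thus called in opposite directions for this ligand. Egfr, the EGF receptor, reached 126 CPM in interneuron-selective cells (59.4 and 193 CPM in the replicates), and 21.9 CPM or less in the other 6 type means. Egf itself was highest in the same type, at 66.3 ± 9.18 CPM (SD, n = 2). Errfi1, an inhibitor of EGF receptor kinases, was highest in deep chandelier cells, at 229 ± 133 CPM. Erbb3 did not exceed 5.55 CPM in any type mean and Erbb2 did not exceed 1.57 CPM.

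**Figure D2:**
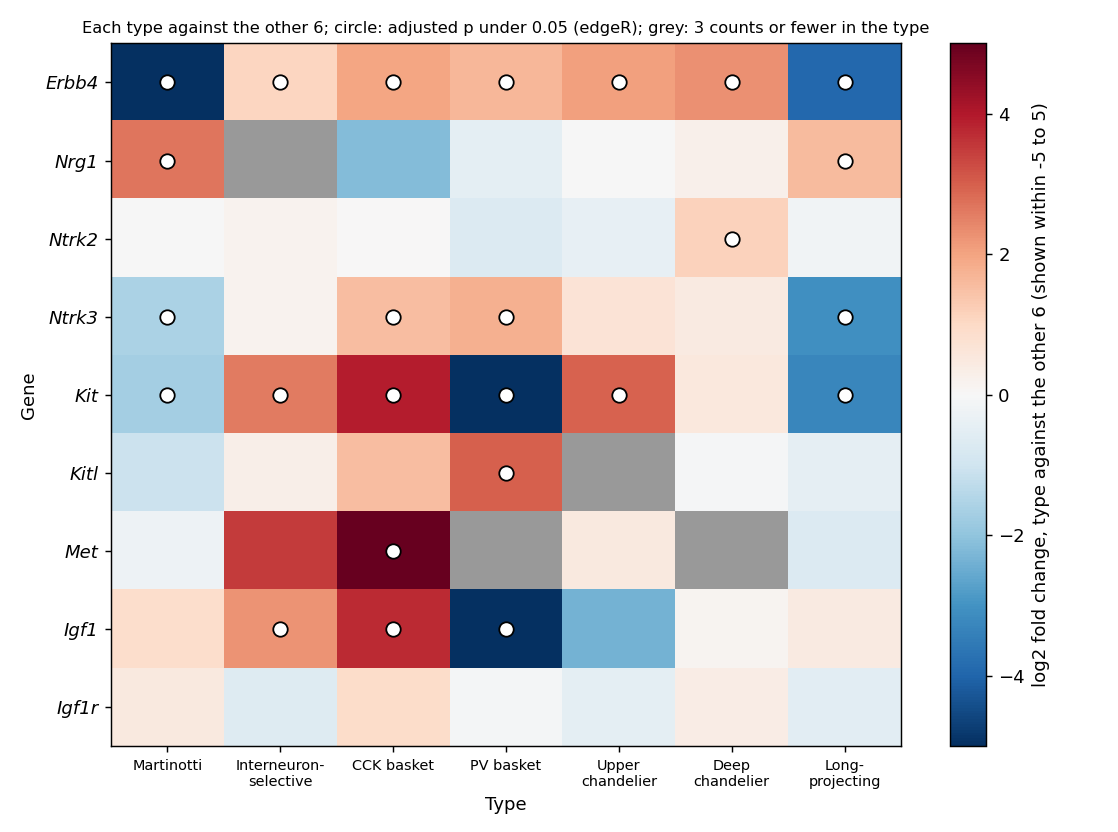
Log2 fold change of each type against the other 6 (colour, shown within -5 to 5) for the 9 genes, with a circle where the edgeR adjusted p was under 0.05 and grey where the type held 3 counts or fewer. Every type is called for Erbb4, none for Igf1r, and Ntrk2 is called in deep chandelier cells alone.

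Kit, the receptor of Kit ligand, divided the types differently from Erbb4: PV basket cells, which were high in Erbb4, had the least of it. CCK basket replicates were at 617 and 573 CPM, upper chandelier replicates at 313 and 448 CPM, and interneuron-selective replicates at 486 and 177 CPM. Deep chandelier replicates were at 67.3 and 76.4 CPM, Martinotti replicates at 14.3 and 33.5 CPM, and long-projecting replicates at 9.92, 3.69, 13.0 and 7.38 CPM. The PV basket replicates were at 2.76 and 3.54 CPM.

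Of the 21 pairs of types, 20 had Kit replicates that did not overlap, the exception being upper chandelier with interneuron-selective cells. Kit was 189 times as high in CCK basket as in PV basket cells, and 5.30 times as high in upper as in deep chandelier cells. All CCK basket, interneuron-selective and upper chandelier cells had a Kit count, and 37 of 127 PV basket cells had one. The 16 PV basket libraries ran from 0 through a median of 1.94 to 18.4 CPM, below all 5 upper chandelier libraries (288 to 510 CPM).

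Kit was called higher in CCK basket (log2 fold change 3.91 ± 0.30, edgeR adjusted p = 1.22e-05), upper chandelier (2.97 ± 0.31, edgeR adjusted p = 0.000182) and interneuron-selective cells (2.59 ± 0.32, edgeR adjusted p = 0.000381). It was called lower in PV basket (-5.02 ± 0.57, edgeR adjusted p = 0.000304), long-projecting (-3.27 ± 0.37, edgeR adjusted p = 4.58e-05) and Martinotti cells (-1.69 ± 0.45, edgeR adjusted p = 0.0424). The Martinotti call was lost without any of 11 replicates, all but interneuron-selective 3 and 4, long-projecting 16 and deep chandelier 11 and 12 (edgeR adjusted p 0.0525 to 0.259), and without deep chandelier library 2 (0.116). With limma voom it was lost too (adjusted p = 0.237), and without Martinotti 2 the change was -2.33. The other 5 held without any 1 replicate, the interneuron-selective change being 1.77 without animal 3.

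Kitl was low in all types, with 514 counts in all, and 357 of these were in PV basket cells. Its PV basket replicates were at 17.4 and 16.7 CPM, and those of the next type, CCK basket, at 2.51 and 10.9 CPM. PV basket cells, lowest in the receptor, therefore had the highest level of its ligand. A Kitl count was found in 94 of 127 PV basket cells and 3 of 80 upper chandelier cells. Their median depths were 130761 and 62608 counts per cell, and the part of depth in these shares was not tested. The 16 PV basket libraries spread from 3.23 to 44.0 CPM. The log2 fold change in PV basket cells was 3.00 ± 0.78 (edgeR adjusted p = 0.0484), close to the threshold and lost without any of 11 replicates, all but interneuron-selective 4, CCK basket 6, deep chandelier 11 and 12 and upper chandelier 14 (edgeR adjusted p 0.0512 to 0.357). Leaving out interneuron-selective library 3 or long-projecting library 2 also ended it (edgeR adjusted p 0.0823 and 0.0598), as did the size factors of DESeq2 in the edgeR fit (0.0594). Without upper chandelier 14 the change was 3.68.

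Of 11 other class III receptors and ligands, all passed the filter and 2 were called in the joint test, a share below the 25.0% of all genes. Il34, a ligand of the CSF-1 receptor, was at 326 and 389 CPM in the Martinotti replicates and at 46.1 CPM or less in the other type means (log2 fold change in Martinotti cells 3.73 ± 0.51, edgeR adjusted p = 0.000684). Pdgfrb, the other gene called, is also one of 8 endothelial and mural markers, 7 of which had a count in Martinotti cells. It was at 0 and 80.3 CPM in the Martinotti replicates and at 2.43 CPM or less in the other type means, and the sum of those markers ran from 19.3 to 308 CPM over the Martinotti libraries. The part of mural cell RNA in this value was not tested.

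**Figure D3:**
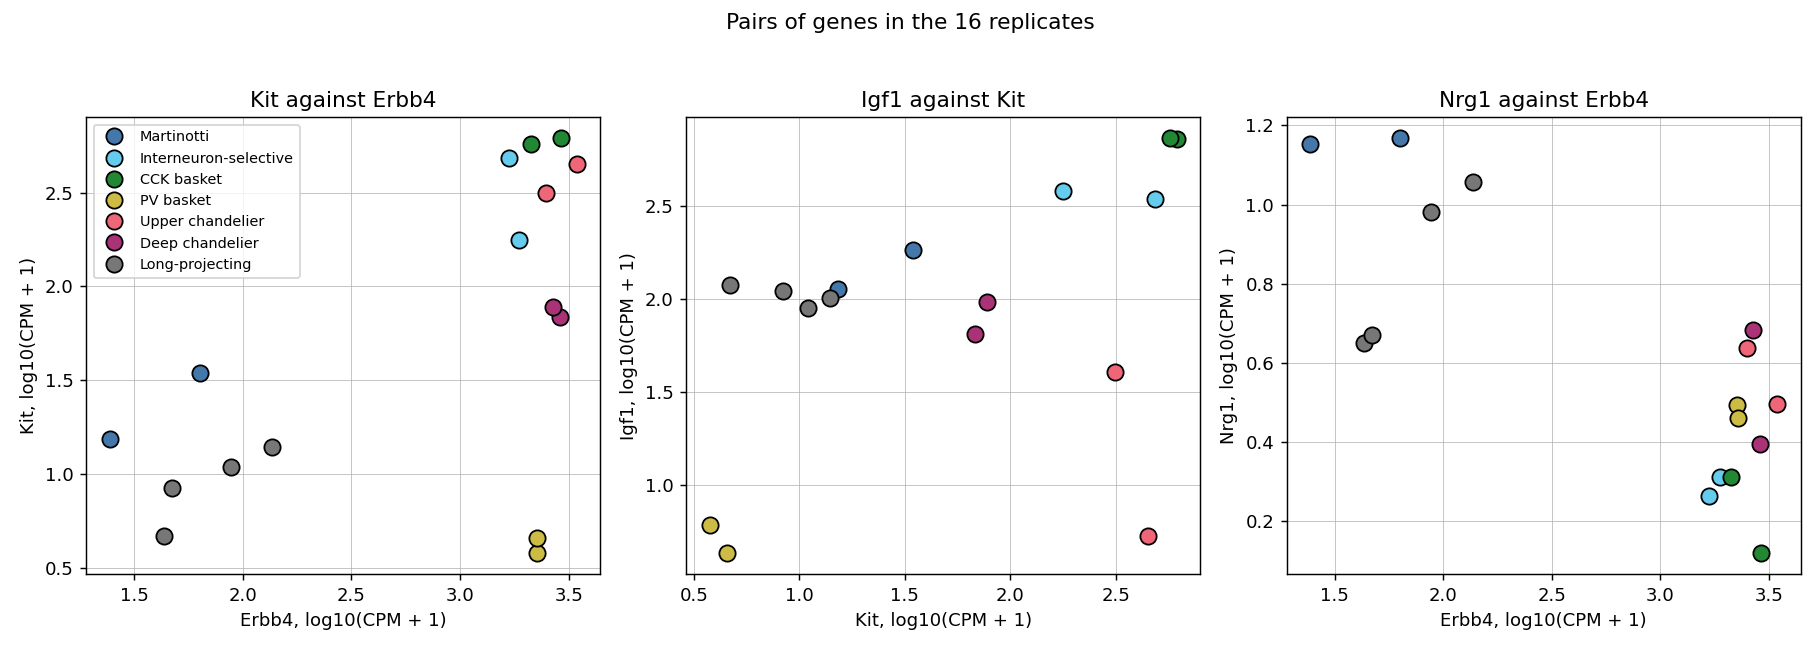
Levels of Kit against Erbb4, Igf1 against Kit, and Nrg1 against Erbb4 in the 16 replicates, each axis as log10(CPM + 1) and colours by type. PV basket cells sit at high Erbb4 with low Kit, and upper chandelier cells at high Kit with low Igf1. The Sst types sit at low Erbb4. Nrg1 is highest in Martinotti cells, and its long-projecting replicates overlap with the deep chandelier ones.

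Ntrk2, which encodes TrkB, was present in 583 of 584 cells and varied least with Igf1r among the 9 genes. Type means ran from 299 ± 8.72 CPM (SD, n = 2) in PV basket cells to 764 ± 268 CPM in deep chandelier cells, a ratio of 2.55. The deep chandelier replicates were at 574 and 954 CPM and interneuron-selective ones at 473 and 648 CPM, and these overlapped. The Martinotti replicates (460 and 442 CPM), CCK basket replicates (421 and 440 CPM) and long-projecting replicates (404, 412, 360 and 329 CPM) followed in that order without overlap. Upper chandelier cells were at 338 and 403 CPM and PV basket cells at 293 and 305 CPM.

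Deep chandelier cells were the sole type called for Ntrk2, with a log2 fold change of 1.14 ± 0.18 (edgeR adjusted p = 0.000967). Within that type library 2 stood apart at 104 CPM, against 788 to 1219 CPM in its other 3 libraries, and the same library had the lowest Ntrk3 of its type. Ntrk2 is also expressed by astrocytes. The summed level of 8 astrocyte markers had its lowest median in deep chandelier cells (43.7 CPM, at most 118 CPM), where 5 of the 8 had a count. The same sum was highest in interneuron-selective cells (median 365 CPM), which had the second highest Ntrk2 level. The part of astrocyte RNA in the Ntrk2 levels was not tested. Ntrk2 had non-whole counts in 277 of the cells. For the gene whose non-whole cells overlapped most with these, 44.9% of the cells non-whole in either gene were so in both. The source of the fractions was not identified.

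Ntrk3, which encodes TrkC, was low in both Sst types. The long-projecting replicates were at 20.0, 16.0, 26.7 and 10.5 CPM and the Martinotti replicates at 37.6 and 57.5 CPM. PV basket replicates were highest, at 354 and 329 CPM, followed by CCK basket at 241 and 319 CPM and upper chandelier at 204 and 172 CPM. Interneuron-selective cells were at 192 and 106 CPM and deep chandelier cells at 98.7 and 171 CPM.

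PV and CCK basket replicates did not overlap for Ntrk3, whereas upper chandelier, interneuron-selective and deep chandelier replicates overlapped in turn. The ratio of the highest to the lowest type mean was 18.6. Ntrk3 was called higher in PV basket (log2 fold change 1.77 ± 0.27, edgeR adjusted p = 0.00224) and CCK basket cells (1.56 ± 0.27, edgeR adjusted p = 0.00359). It was called lower in long-projecting (-3.06 ± 0.29, edgeR adjusted p = 8.83e-06) and Martinotti cells (-1.59 ± 0.35, edgeR adjusted p = 0.0179). The PV basket call was lost without either PV replicate (edgeR adjusted p 0.0519 and 0.0902), the CCK basket call without CCK replicate 6 (0.0715), and the Martinotti call without either Martinotti replicate (0.0800 and 0.124) and with limma voom (0.0814). Ntrk3 also had non-whole counts, in 271 cells, whose source was not identified either.

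Of 13 other neurotrophin genes 9 passed the filter and 7 were called in the joint test, against 25.0% of all genes. The ligands of these receptors were nearly absent: Bdnf did not exceed 0.419 CPM in any type mean, and the highest Ntf3 level was 5.90 ± 0.998 CPM (SD, n = 2), in PV basket cells. Sorcs1 and Sorcs3, sorting receptors of the sortilin family, were high in the 2 Vip types alone among the type means above 300 CPM: Sorcs1 was at 518 ± 38.3 and 746 ± 13.0 CPM (SD, n = 2) in interneuron-selective and CCK basket cells and at 72.8 CPM or less in the others. Sorcs3 was at 1092 and 806 CPM there and at 210 CPM or less elsewhere, with 1 deep chandelier library at 895 CPM. Sort1, sortilin itself, was highest in deep chandelier cells at 388 ± 126 CPM (log2 fold change 1.61 ± 0.24, edgeR adjusted p = 0.000693). Ngfrap1, a protein that associates with the p75 neurotrophin receptor, was highest in long-projecting cells at 1268 ± 70.4 CPM (SD, n = 4), while the p75 gene Ngfr itself did not exceed 0.527 CPM in a type mean.

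Igf1, which encodes the secreted factor IGF-1, was highest in the 2 Vip types. CCK basket replicates were at 722 and 731 CPM, and interneuron-selective replicates at 342 and 379 CPM. Martinotti replicates were at 112 and 183 CPM, long-projecting replicates at 89.1, 118, 101 and 110 CPM, and deep chandelier replicates at 63.7 and 95.3 CPM. Upper chandelier replicates were at 39.6 and 4.36 CPM and PV basket replicates at 5.14 and 3.30 CPM.

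The CCK basket mean was 172 times the PV basket mean for Igf1, and all CCK basket, interneuron-selective and Martinotti cells held a count against 65 of 127 PV basket cells. Upper chandelier library 1, which also carried 374 CPM of Vip, was at 103 CPM, and the other 4 libraries of that type at 0 to 13.4 CPM. Microglia also express Igf1: all 8 of their markers had a count in CCK basket cells, at a summed median of 7.59 CPM and at most 66.6 CPM, while Igf1 was at 521 CPM or more in every CCK basket library. In interneuron-selective cells 7 of the 8 had a count, at 1.88 to 211 CPM in sum, and Igf1 was at 253 CPM or more; the part of microglial RNA in these levels was not tested. The log2 fold change was 3.71 ± 0.37 in CCK basket (edgeR adjusted p = 7.20e-05), 2.23 ± 0.40 in interneuron-selective (edgeR adjusted p = 0.00388) and -5.05 ± 0.69 in PV basket cells (edgeR adjusted p = 0.00114). The PV basket call was lost without animals 9 and 10 (edgeR adjusted p = 0.0548). Igf1 had non-whole counts in 312 cells, or 66.1% of the cells that had any, and their source was not identified, so its level is uncertain.

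Igf1r, the IGF-1 receptor, was found in every type and was called in none. Its means ran from 45.2 ± 6.59 CPM (SD, n = 4) in long-projecting cells to 109 ± 26.1 CPM (SD over 2) for CCK basket cells, and every type's replicates overlapped with those of its neighbour in the order. The largest log2 fold change was 0.93 ± 0.34 in CCK basket cells (edgeR adjusted p = 0.134). The highest and lowest type means differed by 2.42 times. Deep chandelier library 4, the one with 1918 CPM of Vip, was at 3.84 CPM of Igf1r and the other 3 of its type at 69.2 to 104 CPM.

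Of 15 other insulin and IGF genes, 11 passed the filter and 5 were called in the joint test, against 25.0% of all genes. Igfbp5, a secreted protein that binds IGFs, was at 81.0 ± 53.4 and 61.5 ± 0.843 CPM (SD, n = 2) in interneuron-selective and CCK basket cells and at 3.40 CPM or less in the other types, with no count in Martinotti or upper chandelier cells. Irs1, a docking protein for the insulin and IGF-1 receptors, was highest in deep chandelier cells (135 ± 46.5 CPM, log2 fold change 2.13 ± 0.35, edgeR adjusted p = 0.00133). Irs2, its relative, was highest in Martinotti cells (91.5 ± 43.5 CPM, log2 fold change 2.51 ± 0.51, edgeR adjusted p = 0.0120), where Irs1 was called lower (-1.95 ± 0.49, edgeR adjusted p = 0.0330).

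Met, the receptor of hepatocyte growth factor, had 170 counts in all, and 129 of them came from 1 library. CCK basket library 4 was at 52.7 CPM with a count in 16 of its 16 cells, while the other 3 CCK basket libraries held 1 count in 48 cells. The CCK basket replicates were therefore at 0 and 27.2 CPM. Interneuron-selective replicates were at 5.82 and 5.80 CPM with counts in 13 of 63 cells, upper chandelier replicates at 1.51 and 0.267 CPM, and all other replicates at 1.23 CPM or less. Deep chandelier cells had no count, which allows up to 0.404 CPM (3 counts in the type).

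Met was called in CCK basket cells (edgeR adjusted p = 0.0234), and without CCK replicate 6, which holds that library, the adjusted p was 1 and the fitted change turned negative (-3.87). The call was also lost without the PV basket sum of animals 9 and 10 and without upper chandelier 14 (edgeR adjusted p 0.0554 and 0.0544). DESeq2 gave an adjusted p of 0.0829, and limma voom a log2 fold change of 1.38 in place of 5.25 (adjusted p = 0.851). Without long-projecting 18 the edgeR change was 5.91, and without CCK basket 5 it was 6.24. Its ligand Hgf was at 5.66 ± 4.67 CPM (SD, n = 2) in PV basket cells and at 1.59 CPM or less elsewhere. Of 8 genes in the list of Met relatives and HGF processing, 4 passed the filter and 1 was called in the joint test, the same share as the 25.0% of all genes.

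By type, the 9 genes were called as follows against the other 6 types, each count set against the share of all 15533 genes called in the same edgeR comparison. In Martinotti cells 4 were called (1 higher, 3 lower; 5.60% of all genes) and in long-projecting cells also 4 (1 higher, 3 lower; 13.1%). In CCK basket cells 5 were called, all higher (6.30%), and in interneuron-selective cells 3, all higher (10.0%). In PV basket cells 5 were called (3 higher, 2 lower; 3.89%). In upper chandelier cells 2 were higher (1.91%), Erbb4 and Kit, and in deep chandelier cells 2 were higher (19.1%), Erbb4 and Ntrk2. The median log2 fold change of the 9 genes was 1.56 in CCK basket cells and -0.55 in long-projecting cells, where the medians of all genes were 0.04 and 0.10. The Martinotti count was 1 without either of its replicates, the CCK basket count 3 without animal 6, the PV basket count 2 without animals 7 and 8 and 1 without animals 9 and 10, and the upper chandelier count 1 without animal 14.

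The Vip types, which arise in the caudal ganglionic eminence, were compared with the 5 types of medial origin. Of the 9 genes 6 were called, 5 higher and 1 lower, against 10.4% of all genes: Kit (log2 fold change 3.90 ± 0.28, edgeR adjusted p = 2.12e-06), Igf1 (3.57 ± 0.33, edgeR adjusted p = 2.24e-05), Erbb4 (1.81 ± 0.24, edgeR adjusted p = 0.000327), Ntrk3 (1.04 ± 0.23, edgeR adjusted p = 0.0101) and Met were higher and Nrg1 was lower (-2.42 ± 0.63, edgeR adjusted p = 0.0254). These calls compare means over types, and for Erbb4, Ntrk3 and Kit some medial means lay above that of a Vip type. Among the medial types, the Erbb4 means of PV basket and both chandelier types (2255 to 2970 CPM) lay above that of interneuron-selective cells. Both chandelier means (2970 and 2774 CPM) also lay above that of CCK basket cells (2515 CPM), with overlapping replicates. Ntrk3 was highest in PV basket cells (341 CPM), a medial type. Upper chandelier cells had a higher Kit mean (381 CPM) than interneuron-selective cells (331 CPM), with overlapping replicates. The Ntrk3 call was lost without interneuron-selective 3 (edgeR adjusted p = 0.0577) or CCK basket 6 (0.0518), and the Nrg1 call without either interneuron-selective replicate, CCK basket 5 or PV basket animals 7 and 8 (0.0553 to 0.0995) and without interneuron-selective library 3 (0.0581). The Met change was 5.25 with CCK basket 6 and 0.69 without it (edgeR adjusted p = 1.00), and 6.07 without long-projecting 18. With limma voom the Met and Nrg1 calls were both lost (adjusted p 0.206 and 0.185), the Met change being 3.15. In the other lists, 3 of 9 tested neurotrophin genes were higher (Sorcs1, Sorcs2 and Sorcs3) and 1 lower, and 4 of 23 other receptor tyrosine kinases were higher and 1 lower, that one being Alk (-2.21 ± 0.31, edgeR adjusted p = 0.000467).

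The comparisons left lay within 1 flow cell each. Between Martinotti and interneuron-selective cells, both from females, 2 of the 9 genes were called (3.09% of all genes): Erbb4 was lower in Martinotti cells by a log2 fold change of -5.27 ± 0.54 (edgeR adjusted p = 0.000187) and Kit by -3.67 ± 0.57 (edgeR adjusted p = 0.00401). Nrg1 was 3.91 ± 1.04 higher and missed the threshold (edgeR adjusted p = 0.0589). The count was 4 without either deep chandelier replicate (11 or 12). Between upper chandelier and long-projecting cells, whose sex and age differ, 4 were called (4.08% of all genes). Kit (5.35 ± 0.46, edgeR adjusted p = 1.52e-05), Erbb4 (5.12 ± 0.40, edgeR adjusted p = 5.68e-06) and Ntrk3 (3.22 ± 0.34, edgeR adjusted p = 9.44e-05) were higher in upper chandelier cells, and Igf1 was lower (-2.42 ± 0.61, edgeR adjusted p = 0.0382). The Igf1 call was lost without any of 9 replicates, namely those of CCK basket, PV basket and long-projecting cells and upper chandelier 14 (edgeR adjusted p 0.0509 to 0.130), and without deep chandelier library 2 (0.107). The Igf1 change was -4.79 without upper chandelier 13, -1.57 without upper chandelier 14, -3.75 without the 2 chandelier libraries with Vip and -3.20 with limma voom. The Erbb4, Kit and Ntrk3 calls of these 2 comparisons held without any 1 replicate. Between Martinotti and interneuron-selective cells, the changes without Martinotti 2 were -6.04 for Erbb4 and -4.30 for Kit, and that of Kit was -2.85 without interneuron-selective 3.

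**Figure D4:**
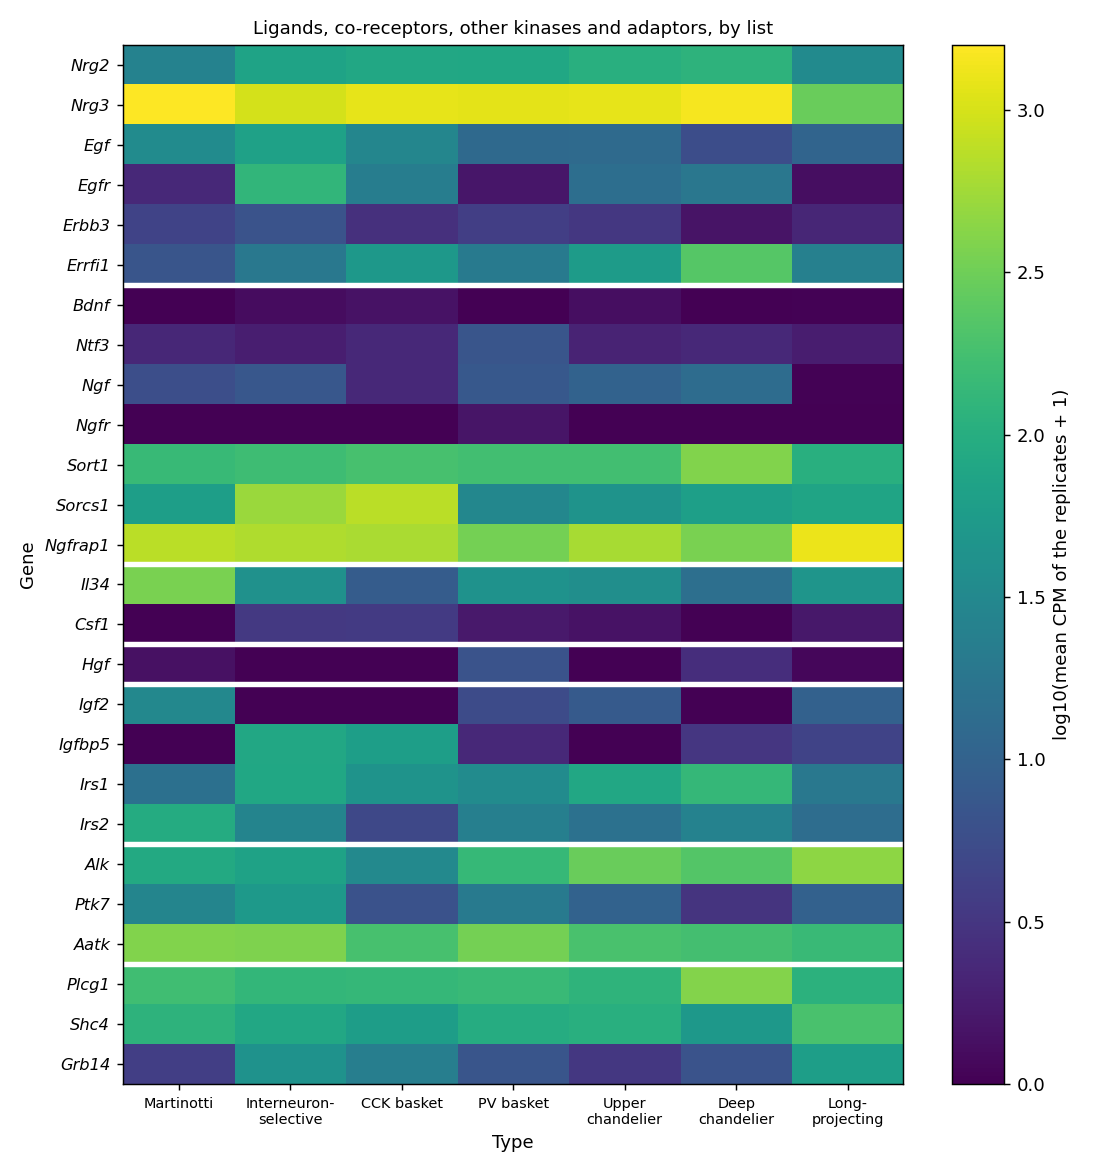
Mean level of the replicates, as log10(CPM + 1), of ligands, co-receptors, other receptor kinases and adaptors (rows, white lines between lists) in the 7 types (columns). Bdnf, Ngfr and Hgf are dark in nearly all types, while Sorcs1 is bright in the 2 Vip types and Il34 in Martinotti cells. Alk is brightest in long-projecting cells, followed by upper and deep chandelier cells.

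Among 27 other receptor tyrosine kinases, 23 passed the filter and 6 were called in the joint test, a share near the 25.0% of all genes. Alk, a receptor kinase of the nervous system, was at 621 CPM in the highest and 294 CPM in the lowest of the 4 long-projecting replicates (450 ± 145 CPM, SD) and at 294 ± 31.9 CPM (SD, n = 2) in upper chandelier cells. Its deep chandelier mean was 219 CPM. It was called higher in long-projecting (log2 fold change 2.15 ± 0.24, edgeR adjusted p = 4.63e-05) and deep chandelier cells (1.06 ± 0.32, edgeR adjusted p = 0.0332). It was lowest in CCK basket cells, at 31.4 ± 19.9 CPM, the reverse of the order of Kit between CCK basket and long-projecting cells. Ptk7, a kinase-like receptor without catalytic activity, was highest in interneuron-selective cells (51.5 ± 43.5 CPM), and Aatk in Martinotti cells (388 ± 121 CPM) and interneuron-selective cells (379 ± 54.2 CPM).

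Of 40 adaptors and effectors that act below these receptors, 39 passed the filter and 10 were called in the joint test, close to the share of all genes. Plcg1, phospholipase C gamma 1, was highest in deep chandelier cells at 408 ± 31.6 CPM (SD, n = 2), although single libraries of that type ran from 15.0 to 875 CPM. Shc4, an adaptor that binds phosphorylated receptors, and Grb14, an adaptor that inhibits the insulin receptor, were highest in long-projecting cells at 190 ± 33.3 and 61.3 ± 48.6 CPM (SD, n = 4).

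The genes whose pattern over the 16 replicates was most like a member's were found by Pearson's r of log2(CPM + 1) among 6854 genes, as a description, since replicates of 1 type share their animals' libraries and flow cell. For Erbb4 these were Zfp804a (r = 0.964), Lrrc4c (0.959) and Dennd5b (0.958). For Kit they were Itih5 (0.910), Nfix (0.901) and Khdrbs2 (0.893), and for Igf1 Rgs8 (0.933), Marcks (0.880) and Cpne7 (0.870). For Ntrk3 they were Elmod1 (0.951), Edil3 (0.925) and Galntl6 (0.918). For Ntrk2 they were Ptprd (0.897), Fam69b (0.826) and Eif5a (0.822), and for Igf1r Zfp608 (0.827), Stxbp5 (0.801) and Fnbp4 (0.797). These lists change with the measure. By Spearman's rho, none of the 3 genes named for Erbb4 or for Ntrk3 was among the top 3, which Gpr176 and Sox5 led, and 1 of the 3 was for Ntrk2, Kit and Igf1r and 2 for Igf1. Within the 9 genes, Erbb4 was most like Ntrk3 (r = 0.885 over 16 replicates) and least like Nrg1 (r = -0.777).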

How the data were processed

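Per the labels' protocols, RNA of single neurons was amplified linearly in 2 rounds and each amplified RNA carried a random tag. Per the submitters' processing notes, Bowtie 0.12.7 and the mm9 build were used. The deposited table holds expected counts of 23335 genes in 584 cells. Non-whole entries (tolerance 1e-06) made up 4.07% of the nonzero ones. No label says whether 1 count is a read or a tag, and floors (3 counts) cover counting error only.

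Counts were summed over the cells of each labelled animal (16 replicates of 1203737 to 12324142 counts) and rounded. They were tested in 1 fit of all types with edgeR 4.0.16 (R 4.3.3; TMM, filterByExpr, robust quasi-likelihood, 9 residual degrees of freedom, Benjamini-Hochberg over 15533 genes, threshold 0.05). Fold changes against the other 6 types compare means of log2 levels. Alternatives were DESeq2 1.42.0, its size factors, no filter, limma voom (3.58.1), 18 animals, and leaving out replicates or libraries.

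The genes and all lists were chosen with earlier results of these data known. Of the lists, a gene was named if it passed the joint test and had 1 of the 3 largest ratios of highest to second type mean, with at least 50 CPM; ligands and co-receptors could be named too. Pdgfrb was named after their values were seen. Patterns were compared for genes with at least 20 CPM in a type, against genes with at least 50 CPM, with a pseudocount of 1. Marker lists of oligodendrocytes and their precursors, astrocytes, microglia, vessels and excitatory neurons were checked. The excitatory sum was highest in CCK basket (median 259 CPM) and interneuron-selective libraries (204 CPM), against 20.8 to 112 CPM in the other types. Camk2a alone had means of 224 and 200 CPM in those 2 types. Slc17a7, another marker of the list, was at 2.85 and 1.85 CPM there and highest in Martinotti cells (28.2 CPM). The precursor sum had its highest median in upper chandelier cells (44.0 CPM). There C1ql1 alone had a mean of 32.7 CPM, and Olig2 and Cspg4 had no count. Olig1 and Olig2 were highest in interneuron-selective cells, at means of 21.6 and 4.48 CPM. The part of such RNA in the levels of the 9 genes was not tested.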

Additional observations from a re-analysis of the deposited data

Results flagged for a closer look

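Single libraries far from the others of their type were sought in 53 sets of 4 to 10 libraries, and 10 were found. The rule (Dixon's ratio) flags about 1 in 20 sets of normally distributed values. Sets of few counts with many libraries at or near 0, as for Kitl and Met, are not of that kind. The number found can therefore not be set against that rate. In deep chandelier cells, library 2 was at 35.2 CPM of Ntrk3, against 157 to 179 CPM in the other 3, and at 7.66 CPM of Kitl, against 0 to 1.03 CPM. In upper chandelier cells, library 1 was at 103 CPM of Igf1 against 0 to 13.4 CPM and at 4.16 CPM of Met against 0 to 0.799 CPM, and library 5 held the type's only Kitl counts (1.90 CPM). In CCK basket cells, library 4 was at 52.7 CPM of Met and the others at 0 to 0.429 CPM. In long-projecting cells, library 6 was at 21.1 CPM of Kit against 2.84 to 11.1 CPM, and library 8 held all Met counts (2.19 CPM). Kitl was at 3.21 CPM in Martinotti library 2 (others 0.736 to 0.893 CPM) and at 13.7 CPM in interneuron-selective library 4 (others 0 to 1.88 CPM). PV basket cells, with 16 libraries, were not examined in this way.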

How the results depend on the processing

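Of 1075 repeats of the 43 calls, 983 kept direction and call, 91 kept direction but missed the threshold and 1 reversed: Met in CCK basket cells, from 5.25 to -3.87 on the log2 scale without CCK basket replicate 6, the other replicates left out giving up to 6.24. With limma voom and a spread for each type, the Martinotti count fell from 4 to 1; the cause was not tested. The count between Martinotti and interneuron-selective cells rose from 2 to 4 with DESeq2 and with 18 labelled animals. Leaving out 1 replicate at a time gave 5 to 7 genes in the joint test, 1 to 4 in Martinotti, 2 to 3 in interneuron-selective, 3 to 6 in CCK basket, 1 to 6 in PV basket, 1 to 3 in upper chandelier, 2 in deep chandelier and 3 to 4 in long-projecting cells. The same gave 4 to 6 for the Vip types against the rest, 2 to 4 between Martinotti and interneuron-selective cells and 3 to 4 between upper chandelier and long-projecting cells. The lowest PV basket and Martinotti counts came from leaving out one of the type's own replicates, which leaves 1 sample assumed to vary like the other groups. Without deep chandelier library 2, without long-projecting library 2 (both chosen after seeing the data), without interneuron-selective library 3 or without the chandelier libraries with Vip, no count moved by more than 1.5 times. No paired analysis was possible because each animal belongs to 1 type and the library numbers in the titles only count libraries within a type. Few counts limit Nrg1, Kitl and Met.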
